A study of Homo sapiens with 12 samples.

Results

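The 9 genes described here encode parts of the MHC class I presentation pathway: the heavy chains HLA-B, HLA-C, HLA-E and HLA-F, their shared light chain B2M, the peptide transporter subunits TAP1 and TAP2, and the immunoproteasome subunits PSMB8 and PSMB9. They were chosen by name, as 9 of the 29744 gene rows of the count table, and all 9 were among the 14417 rows with enough counts to be tested. RNA was sequenced from 4 human mammary epithelial cell lines with 3 biological replicates each, 12 libraries in all. A10 is the non-tumorigenic line MCF10A. MCF10A given a mutant HRAS is MCFNeoT, here NeoT, labelled benign hyperplasia. T1 is MCFT1, labelled atypical hyperplasia, and CA1 is MCFCA1, labelled invasive cancer, and both descend from the HRAS-carrying cells through growth as xenografts. The series design groups all 4 as triple-negative breast cancer lines, gives no treatment, and was made to judge how reproducible a combined preparation of DNA, RNA and peptides is. Each line stands for its stage alone, so a difference between stages and a difference between 4 individual lines cannot be told apart.

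In nearly all nucleated cells, proteasomes cut cytosolic proteins into peptides, TAP1 and TAP2 form the channel that carries these peptides into the endoplasmic reticulum, and a heavy chain folded with B2M binds a peptide and takes it to the cell surface. There CD8 T cells read HLA-B and HLA-C, while HLA-E is the ligand of the CD94/NKG2A receptor of natural killer cells and HLA-F is a less studied class I molecule. PSMB8 and PSMB9 replace the constitutive catalytic subunits PSMB5 and PSMB6 in the immunoproteasome, and most genes of the pathway are known to respond to interferon and to the class I transactivator NLRC5.

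All members but B2M lie in the MHC on chromosome 6, and B2M lies on chromosome 15 (GRCh38, chr15:44711517-44718145, plus strand). HLA-C (chr6:31268749-31272092) and HLA-B (chr6:31353875-31357179) are both on the minus strand, 81782 bases apart. TAP2, PSMB8, TAP1 and PSMB9 together span 38021 bases. TAP1 (chr6:32845209-32853704, minus strand) and PSMB9 (chr6:32854192-32859851, plus strand) point away from each other, and 487 bases separate their starts. HLA-B and HLA-C are shown because these neighbours had different orders over the lines, and TAP1 and PSMB9 because their starts are close and they had the same order with ranges of 1.641-fold and 7.042-fold. The 250 bases before each of the 4 starts are printed from RefSeq (GRCh38.p14), 5′ to 3′ on the strand of the gene. Capitals mark matches, on either strand, to 2 cores: GAAA, then any 2 bases, then GAAA (a core of the sites bound by interferon regulatory factors), and GGG, then any 5 bases, then CC (a loose NF-kB core). The windows are chr6:31357180-31357429 for HLA-B, chr6:31272093-31272342 for HLA-C, chr6:32853705-32853954 for TAP1 and chr6:32853942-32854191 for PSMB9.
HLA-B: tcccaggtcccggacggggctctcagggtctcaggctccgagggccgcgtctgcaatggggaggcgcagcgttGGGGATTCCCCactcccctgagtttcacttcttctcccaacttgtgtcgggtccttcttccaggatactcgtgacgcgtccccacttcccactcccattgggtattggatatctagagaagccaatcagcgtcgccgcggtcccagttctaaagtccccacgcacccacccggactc
HLA-C: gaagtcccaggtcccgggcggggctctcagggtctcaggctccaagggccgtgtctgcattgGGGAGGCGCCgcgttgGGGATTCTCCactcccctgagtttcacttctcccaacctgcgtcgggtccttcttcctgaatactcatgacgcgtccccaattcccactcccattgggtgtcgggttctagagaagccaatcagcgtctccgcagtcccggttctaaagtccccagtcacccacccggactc
TAP1: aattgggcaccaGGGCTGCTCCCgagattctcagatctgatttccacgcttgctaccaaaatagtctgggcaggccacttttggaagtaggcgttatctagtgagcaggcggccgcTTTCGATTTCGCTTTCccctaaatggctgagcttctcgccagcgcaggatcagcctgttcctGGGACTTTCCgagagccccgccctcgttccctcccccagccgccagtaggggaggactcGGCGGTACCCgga
PSMB9: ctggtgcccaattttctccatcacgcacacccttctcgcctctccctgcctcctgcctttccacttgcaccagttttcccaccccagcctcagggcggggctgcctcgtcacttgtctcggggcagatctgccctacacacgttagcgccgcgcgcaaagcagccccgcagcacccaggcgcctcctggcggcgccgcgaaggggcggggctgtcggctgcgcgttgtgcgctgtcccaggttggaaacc

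The HLA-B and HLA-C windows were identical at 226 of 254 aligned columns (88.98%). RefSeq windows were found for 8 of the 9 members. The interferon regulatory factor core marked above matched 4 of the 8 (B2M, HLA-F, TAP1 and TAP2) and 3.021% of 35116 RefSeq windows of the same length. The NF-kB core marked above matched 5 of the 8 (B2M, HLA-B, HLA-C, TAP1 and TAP2) and 54.43% of all windows. Which members matched depended on the spelling. After those matches were seen, 2 other spellings of the first core were tried: GAANNGAAA matched 3 of the 8 (HLA-B, HLA-C and TAP2; 6.555% of all windows), and AANNGAAA matched 6 (those of the first spelling, with HLA-B and HLA-C; 20.31%). A second NF-kB spelling tried in the same way, GGNNTTNCC, matched 4 (B2M, HLA-B, PSMB8 and TAP1; 14.98%). TTCNNNGAA, the gamma-activated sequence, matched 0 of the 8 and 6.567% of all windows. These counts take the window at the annotated start of each gene. TAP1 and PSMB8 each have a further RefSeq window at another start, and TTCNNNGAA matched in both of these, as ttctgggaa in TAP1 and ttctcggaa in PSMB8. CCAAT matched 6 of the 8 and 32.01% of all windows, and TGACG, a core of cyclic AMP response elements, matched 6 and 21.22%. The searches overlap one another, and a match describes the letters only.

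Library totals ran from 18032404 to 35730417 counts. Pearson's r of log2 CPM (counts scaled to a common library size) was 0.979 to 0.9894 between replicates and 0.8136 to 0.9041 between lines. T1 replicate 1 held 7.76% of its counts in cytoplasmic rRNA rows, against 0.954% to 2.18% elsewhere. HRAS, the gene introduced into NeoT, had 64.5 ± 4.586 CPM (SD, n = 3) in A10, and its level in NeoT was 239.5 ± 21.66, with 158.2 ± 11.91 in T1 and 301.9 ± 11.9 in CA1. The summed CPM of 7 mammary epithelial markers was 4516 to 4886 in A10, 5375 to 5648 in T1, 7553 to 8258 in CA1 and only 785.6 to 905.8 in NeoT, where TP63 was at 0. The sum joins markers that differed in opposite directions. KRT5 had 3347 CPM in A10 and 270.5 in CA1 (means), and KRT14 had 450.7 and 3.326. KRT8 had 147.2 and 3699 in these lines, and KRT18 had 349.9 and 3188. Of the 7, 3 were higher and 3 lower in CA1 than in A10 (edgeR adjusted p under 0.05). In NeoT 5 were lower than in A10 and 1 was higher, KRT8, at 473.1 CPM. The leukocyte markers PTPRC, CD3E and MS4A1 were at 0 counts in all 12 libraries, while the sum of 10 leukocyte markers, carried by CD14 and CD68, was 75.85 to 80.22 in A10, 204.6 to 220.1 in NeoT, 107 to 115.5 in T1 and 104.7 to 109.3 in CA1. The sum of 9 fibroblast markers was 612.4 to 680.2 in NeoT, where DCN held 632.4 CPM on average, 133.1 to 141.1 in A10, where DCN held 69.1 and POSTN 62.3, 2.562 to 2.985 in T1 and 3.626 to 4.735 in CA1, where DCN was at 0 counts. The part of these marker differences in the results below was not tested. Fewer cells of a kind and less RNA per cell cannot be told apart in such libraries.

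Levels below are CPM scaled with TMM factors, as mean ± SD over 3 libraries. Differences come from an edgeR quasi-likelihood fit to all 12 libraries, two-sided, with Benjamini-Hochberg adjustment over the 14417 genes, and a gene was called at an adjusted p under 0.05. All 9 members were called in the test of any difference among the 4 lines, as were 89.8% of all tested genes, so that count is near what any gene showed.

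HLA-B, a classical heavy chain, was lowest in T1 and highest in A10. Its 3 libraries held 294.3, 298.6 and 317.0 CPM in A10, 186.1, 172.9 and 158.9 in NeoT, 53.59, 51.52 and 51.06 in T1, with 236.6, 266.9 and 263.6 in CA1. No library of one line overlapped those of another, and the order from T1 through NeoT and CA1 to A10 was called at each step. T1 was 5.826-fold below A10 (log2 fold change -2.54 ± 0.07 SE, edgeR adjusted p = 2.88e-15), and CA1 was 4.912-fold above T1 (adjusted p = 1.08e-14).

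HLA-C, the other classical heavy chain among the members, had another order. It stood at 326.3, 348.1 and 354.5 CPM in A10, 233.0, 221.1 and 176.4 in NeoT, 316.1, 316.4 and 292.0 in T1, with 166.6, 173.0 and 170.6 in CA1. A10 and T1 were high and CA1 was lowest. T1 was not called against A10 (edgeR adjusted p = 0.121), with a 95% interval of the fold of 0.8052 to 1.003; it was called lower without NeoT replicate 3 (adjusted p = 0.0102). CA1 was 2.016-fold below A10 (adjusted p = 2.87e-09) and 1.812-fold below T1 (adjusted p = 4.93e-08), the comparison in which HLA-B was higher.

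The balance between these neighbouring genes was therefore read within each library, where scaling between libraries plays no part. HLA-B made up 46.94% ± 0.6642 of the counts of HLA-B and HLA-C together in A10, 45.22% ± 1.894 in NeoT, 14.46% ± 0.4413 in T1, with 60.02% ± 1.165 in CA1 (SD, n = 3). These shares were chosen after the levels had been seen, 9 were computed, and they are given without a test. Class I genes resemble each other: 14.7% of the 31-base words of the HLA-B transcript and 19.92% of those of HLA-C also occur in another class I heavy chain gene, and a GENCODE 29 model of HLA-B reaches over HLA-C. How the authors' read assignment, or the fit of these lines' alleles to the reference, bears on the levels was not tested.

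**Figure D1:**
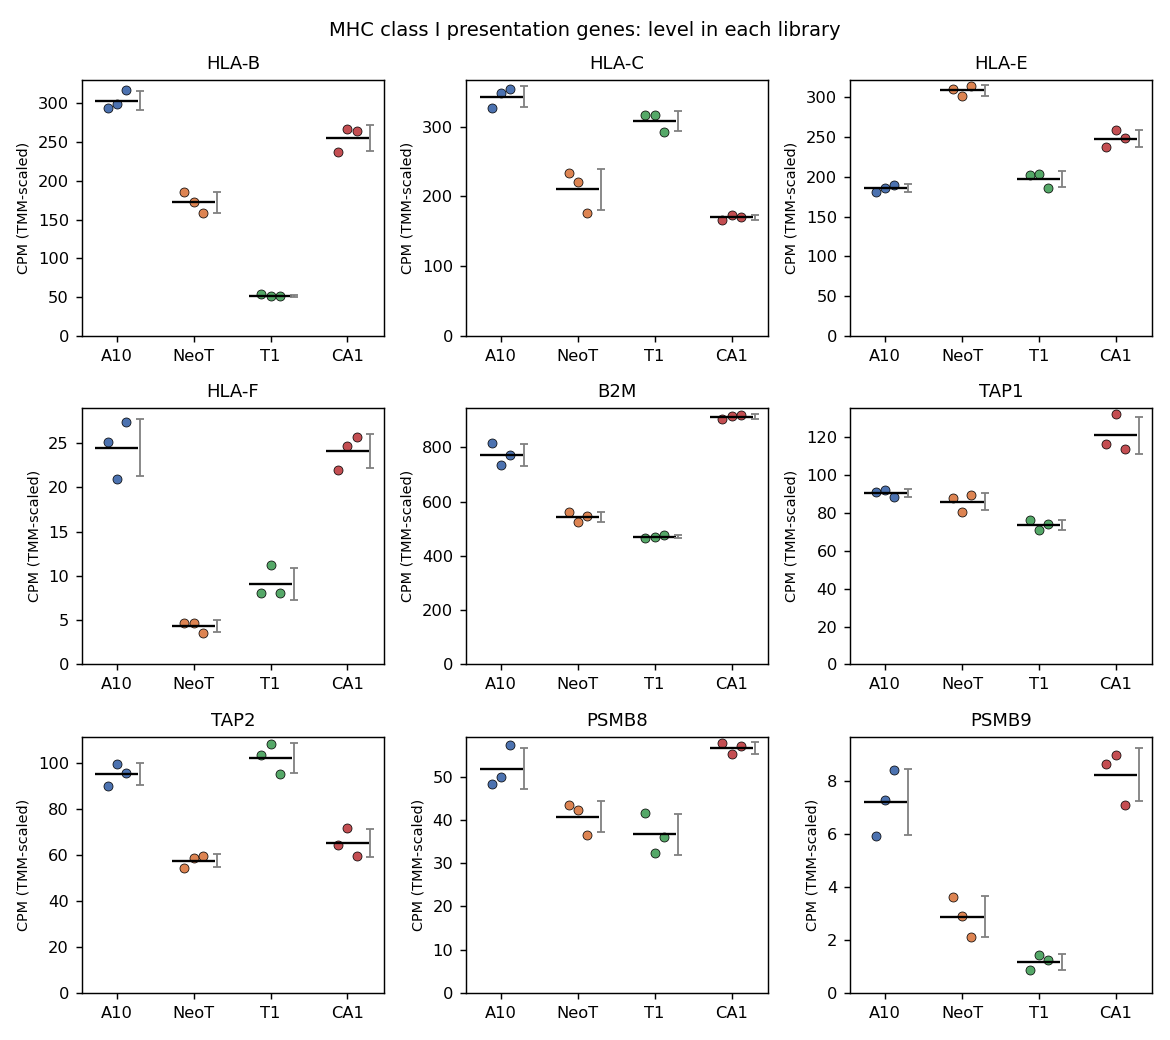
Level of each of the 9 genes in each library (vertical axis, TMM-scaled CPM, from 0) for the 4 lines; points are libraries, the horizontal bar is the mean and the grey bracket 1 SD (n = 3). HLA-B and PSMB9 are lowest in T1, HLA-F is lowest in NeoT, and HLA-C and TAP2 are high in T1 and A10.

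HLA-E ran against the classical chains in NeoT. Its libraries held 180.4, 185.5 and 190.3 CPM in A10, 309.9, 301.2 and 314.5 in NeoT, 202.6, 203.5 and 185.4 in T1, with 237.5, 258.4 and 248.4 in CA1. NeoT was highest with no overlap, 1.664-fold above A10 (edgeR adjusted p = 3.05e-09), and CA1 was 1.339-fold above A10 (adjusted p = 5.3e-06). T1 overlapped A10 and was not called (adjusted p = 0.229, 95% interval of the fold 0.9805 to 1.154).

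HLA-F was the least abundant heavy chain member per kilobase of transcript, with 2.652 to 14.98 CPM per kilobase as line means. It stood at 25.16, 20.98 and 27.35 CPM in A10, 4.71, 4.701 and 3.598 in NeoT, 8.041, 11.2 and 8.054 in T1, with 21.96, 24.61 and 25.64 in CA1. A10 and CA1 overlapped (edgeR adjusted p = 0.885, 95% interval 0.8133 to 1.188). NeoT was 5.603-fold below A10 (adjusted p = 1.04e-10) and T1 was 2.684-fold below it (adjusted p = 1.46e-07). The antisense gene HLA-F-AS1, whose model lies over HLA-F, had 0.8899 to 4.258 CPM as line means, and no source used here says that reads were counted by strand.

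B2M, the light chain that all these heavy chains need, was the most abundant member per kilobase of transcript in every line, with 453.5 ± 23.99 CPM per kilobase in A10, 318.9 ± 10.99 in NeoT, 276.2 ± 2.705 in T1, with 535.3 ± 5.242 in CA1. As CPM it held 815.1, 733.4 and 771.1 in A10, 561.3, 524.0 and 545.8 in NeoT, 467.0, 469.6 and 476.0 in T1, with 903.0, 914.7 and 920.6 in CA1. The 4 lines did not overlap. T1 was lowest, 1.642-fold below A10 (edgeR adjusted p = 3.33e-09), and CA1 was 1.938-fold above T1 (adjusted p = 5.14e-11) and 1.18-fold above A10 (adjusted p = 0.000809). The range of B2M over the lines was thus narrower than the 5.826-fold range of HLA-B.

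The transporter subunits did not vary together. TAP1 stood at 91.25, 91.96 and 88.18 CPM in A10, 87.71, 80.7 and 89.26 in NeoT, 76.14, 70.86 and 74.04 in T1, with 116.5, 132.2 and 113.9 in CA1, so CA1 was highest and T1 lowest. TAP2 stood at 90.05, 99.68 and 95.7 CPM in A10, 54.56, 58.57 and 59.61 in NeoT, 103.3, 108.1 and 95.14 in T1, with 64.14, 71.92 and 59.62 in CA1. For TAP2, A10 and T1 were the high lines and NeoT and CA1 the low ones. From T1 to CA1 TAP1 was 1.641-fold higher (edgeR adjusted p = 9.96e-08) and TAP2 1.567-fold lower (adjusted p = 1.36e-06). NeoT was not called against A10 for TAP1 (adjusted p = 0.36, 95% interval 0.8607 to 1.047), while TAP2 was 1.652-fold lower there (adjusted p = 2.12e-07). TAP2 was not called in T1 against A10 (adjusted p = 0.288, interval 0.9658 to 1.196) or in CA1 against NeoT (adjusted p = 0.0588, interval 1.015 to 1.266), although the latter was called higher without NeoT replicate 3 (adjusted p = 0.0252) or CA1 replicate 3 (adjusted p = 0.023). TAP1 made up 48.76% ± 1.364 of the counts of both subunits in A10, 59.85% ± 1.855 in NeoT, 41.93% ± 2.135 in T1, with 64.97% ± 0.6046 in CA1.

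PSMB9, which shares the short interval before its start with TAP1, had the fewest counts of the 9 genes in every line. It held 5.906, 7.278 and 8.381 CPM in A10, 3.62, 2.89 and 2.089 in NeoT, 0.854, 1.424 and 1.227 in T1, with 8.616, 8.979 and 7.081 in CA1. T1 was 6.099-fold below A10 (log2 fold change -2.61 ± 0.25 SE, edgeR adjusted p = 6.76e-08) and CA1 6.99-fold above T1 (adjusted p = 2.35e-08). The T1 libraries rest on 24, 45 and 30 counts, so the 95% interval of the last fold runs from 4.952 to 9.866. CA1 was not called against A10 (adjusted p = 0.435, interval 0.8504 to 1.544).

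PSMB8 varied less. It stood at 48.33, 49.84 and 57.26 CPM in A10, 43.44, 42.27 and 36.56 in NeoT, 41.59, 32.25 and 36.1 in T1, with 57.66, 55.13 and 57.03 in CA1. A10 and CA1 overlapped, as did NeoT and T1. CA1 was 1.545-fold above T1 (edgeR adjusted p = 2.59e-05), and T1 was 1.414-fold below A10 (adjusted p = 0.000331). CA1 was not called against A10 (adjusted p = 0.253, interval 0.9564 to 1.249), nor T1 against NeoT (adjusted p = 0.177, interval 0.783 to 1.028), although the latter was called lower without NeoT replicate 3 (adjusted p = 0.0367) or T1 replicate 1 (adjusted p = 0.0369). PSMB9 made up 12.13% ± 1.077 of the counts of both subunits in A10, 6.499% ± 1.147 in NeoT, 3.176% ± 1.113 in T1, with 12.68% ± 1.505 in CA1. GENCODE 29 models of PSMB9 and of the antisense gene PSMB8-AS1 (TAPSAR1 in the table) lie over TAP1 and PSMB8 on the opposite strand, and TAPSAR1 had at most 2.329 CPM as a line mean.

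PSMB8 can also be set beside PSMB5, the constitutive subunit that it replaces. PSMB8 made up 26.05% ± 1.613 of the counts of this pair in A10, 22.87% ± 0.3761 in NeoT, 21.77% ± 2.638 in T1, with 35.18% ± 2.121 in CA1. CA1 was the line in which PSMB5 was lowest, at 104.6 ± 7.454 CPM against 146.9 ± 6.06 in A10. PSMB10, also an immunoproteasome subunit but no member, was 1.694-fold lower in NeoT than in A10 (edgeR adjusted p = 0.000229). It was not called in T1 against A10 (edgeR adjusted p = 0.618, interval 0.7663 to 1.143), where PSMB9 was low. Nor was PSMB10 called in CA1 against A10 (edgeR adjusted p = 0.667, interval 0.7757 to 1.162), at 19.53 ± 2.838 and 20.63 ± 2.214 CPM. The higher PSMB8 share in CA1 thus describes this pair only, and shares with other constitutive subunits are not reported here.

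**Figure D2:**
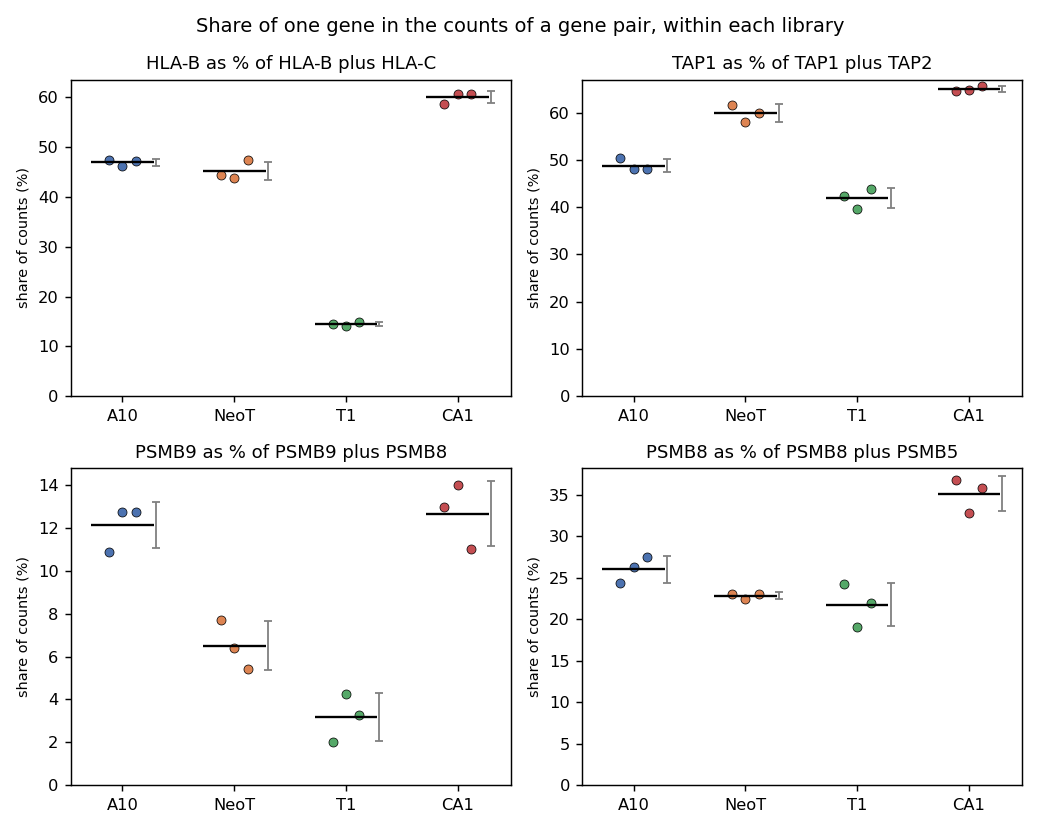
Share of one gene in the summed counts of a pair (vertical axis, percent, from 0) in each library of the 4 lines; points are libraries, bars means and brackets 1 SD (n = 3). HLA-B takes 14.46% of the HLA-B and HLA-C counts in T1 and 60.02% in CA1, and TAP1 takes its lowest share of the transporter counts in T1.

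Counted over the members, NeoT had 1 higher (HLA-E) and 7 lower than A10, beside 33.7% and 36.7% of all tested genes. T1 had 0 higher and 6 lower than A10, beside 26.0% and 25.9%. CA1 had 3 higher (HLA-E, B2M and TAP1) and 3 lower (HLA-B, HLA-C and TAP2), beside 34.4% and 36.5%, which is near the background. T1 had 3 higher (HLA-C, HLA-F and TAP2) and 5 lower than NeoT, beside 35.0% and 32.4%; of the 5, TAP1 (adjusted p = 0.0118) was lost without T1 replicate 2 (adjusted p = 0.0603). CA1 had 7 higher and 2 lower (HLA-C and TAP2) than T1, beside 30.4% and 31.9%. CA1 had 6 higher and 2 lower (HLA-C and HLA-E) than NeoT, beside 33.8% and 32.7%. The median log2 fold change of the members was -0.705, -0.499 and 0.128 in NeoT, T1 and CA1 against A10, and -0.207, 0.714 and 0.494 in T1 against NeoT, CA1 against T1 and CA1 against NeoT. Over all tested genes each of these medians lay between -0.0419 and 0.01374. Comparisons that share a line share its 3 libraries, so these counts do not stand independently of each other.

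**Figure D3:**
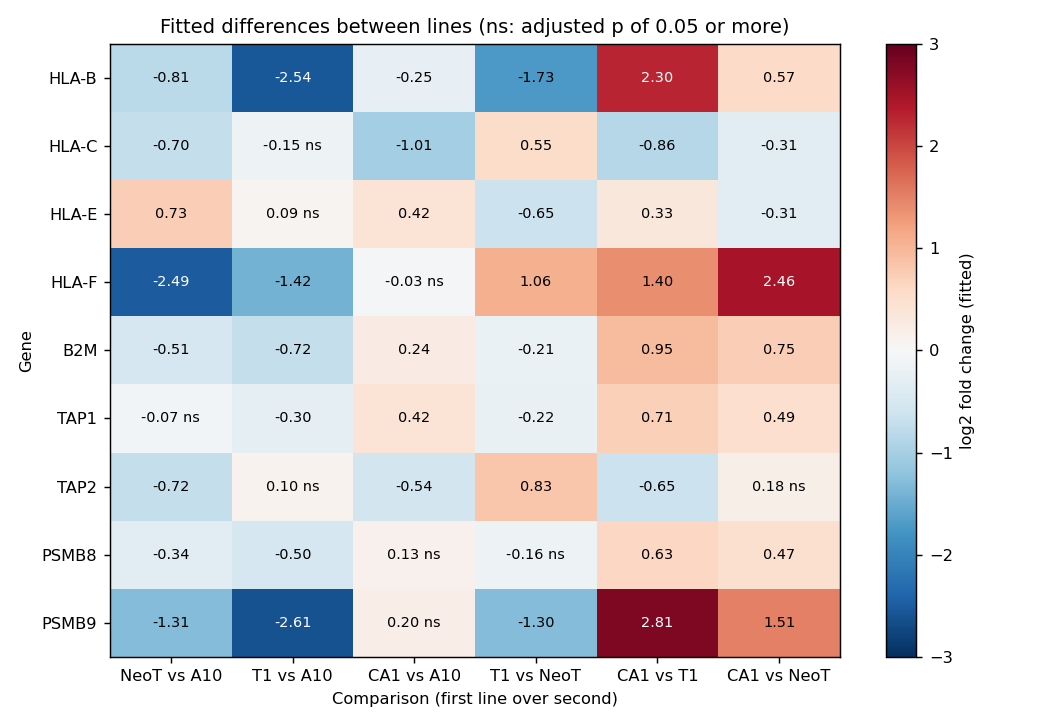
Fitted log2 fold change of each gene (rows) in each of the 6 comparisons (columns, first line over second); colour gives the value, and ns marks an adjusted p of 0.05 or more. In CA1 against T1 the column holds 7 positive and 2 negative called values, the negative ones being HLA-C and TAP2.

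By the root-mean-square difference between line means of log2 CPM, each centred over the 4 lines, the closest members were TAP1 and PSMB8 (0.113), B2M and PSMB8 (0.128), B2M and TAP1 (0.18) and HLA-C and TAP2 (0.196). HLA-B was closest to PSMB9 (0.335), and HLA-B and HLA-C lay 1.177 apart. Among 9329 other genes of at least 10 CPM on average, FSTL1 (0.341) and IGFBP2 (0.38) were among the 3 nearest to HLA-B, and SQLE (0.462) and FSTL1 (0.478) among the 3 nearest to PSMB9. The nearest were C19orf43, TPGS1 and FTSJ3 for HLA-C (0.02 to 0.033), AGBL5, TYW5 and EIF3F for HLA-E (0.015 to 0.027) and HSPA1A, FDPS and APOBEC3B for HLA-F (0.176 to 0.264). They were AZIN1, MAPK6 and HIAT1 for B2M (0.041 to 0.06), SLC7A6OS, GPN2 and MRPL43 for TAP1 (0.015 to 0.032), TRAPPC10, AIMP2 and IMPA2 for TAP2 (0.032 to 0.04) and RNF115, CRIPT and WDR89 for PSMB8 (0.044 to 0.047). With 4 line means per gene, such likeness is a description.

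The rest of the pathway was read from lists of genes that leave the members out. Of 14 tested class I transcription regulators, 2 were higher and 9 lower in NeoT than in A10, 0 and 7 in T1, and 3 and 6 in CA1. Over all tested genes the shares were 33.7% and 36.7%, 26.0% and 25.9%, and 34.4% and 36.5%, so the CA1 counts are near the background. NLRC5, the class I transactivator, stood at 10.94 ± 0.4364 CPM in A10, 4.77 ± 0.4838 in NeoT, 7.634 ± 0.9163 in T1, with 5.006 ± 0.7762 in CA1. RFX5, a subunit of the RFX complex that binds class I and class II promoters, stood at 66.84 ± 0.4982, 21.54 ± 3.52, 28.35 ± 1.544 and 11.41 ± 0.7001 CPM in the same order. Both were lower in CA1 than in T1 (edgeR adjusted p = 0.00444 for NLRC5 and 9.17e-09 for RFX5), the comparison in which 7 members were higher. IRF2 and NFYA had their lowest means in T1, and they are singled out here after their values were seen. IRF2 stood at 19.68 ± 1.801 CPM there against 31.97 ± 0.8165 in A10, 34.88 ± 3.957 in NeoT and 38.5 ± 1.922 in CA1. NFYA stood at 25.77 ± 2.836 CPM in T1 against 38.95 ± 3.766 in NeoT and 39.69 ± 1.52 in CA1, and it was not called in T1 against A10 (edgeR adjusted p = 0.164). NFYB and NFYC of the same list did not share this pattern. NFYB had its highest mean in T1, at 27.97 ± 2.716 CPM, and was lower in CA1 than in T1 (edgeR adjusted p = 6.92e-06). NFYC was lowest in NeoT, at 21.77 ± 1.531 CPM against 34.72 ± 1.712 in T1.

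Of 11 tested genes of peptide loading and trimming, 1 was higher and 6 lower in T1 than in A10, beside 26.0% and 25.9% of all tested genes. In CA1 against T1, 6 were higher and 2 lower, beside 30.4% and 31.9%. TAPBP, which bridges the transporter and the heavy chain, was 1.593-fold lower in T1 than in A10 (edgeR adjusted p = 1.23e-08) and 1.43-fold higher in CA1 than in T1 (adjusted p = 3.57e-07). It was singled out for its role. Of the 4 genes of this list with the smallest adjusted p in the test of any difference, PDIA6, CANX, PDIA3 and HSPA5, all chaperones or folding enzymes, each had its highest mean in NeoT, such as 1615 ± 177.5 CPM for CANX against 897.1 ± 27.96 in A10. Over the 11 genes, 5 were higher and 4 lower in NeoT than in A10, beside 33.7% and 36.7% of all tested genes. CALR, another chaperone of this list, was among the lower ones (edgeR adjusted p = 0.0494). Of 5 immunoproteasome and activator genes, 0 were higher and 4 lower in both NeoT and T1 than in A10, beside 36.7% and 25.9% of all tested genes called lower. In CA1 against T1, 1 was higher and 1 lower, beside 30.4% and 31.9% of all tested genes. PSME1, a subunit of the PA28 activator, was 1.618-fold higher in CA1 than in T1 (adjusted p = 8.69e-08), PSME3, a subunit of another proteasome activator, was 1.977-fold lower (adjusted p = 1.89e-10), and PSME2, POMP and PSMB10 were not called.

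Interferon-stimulated genes were counted in the same way. Of 49 tested, 4 were higher and 41 lower in NeoT than in A10, beside 1 and 7 of the 9 members. The shares over all tested genes were 33.7% and 36.7%. In CA1 against NeoT, 34 were higher and 6 lower, beside 6 and 2 members and 33.8% and 32.7% of all tested genes. In these comparisons both leaned the same way. In T1 against A10, 26 were higher and 11 lower, beside 0 and 6 members and 26.0% and 25.9%. In CA1 against T1, 8 were higher and 33 lower, beside 7 and 2 members and 30.4% and 31.9%. In the last 2 comparisons they leaned opposite ways. In T1 against NeoT, 41 were higher and 4 lower, beside 3 and 5 members and 35.0% and 32.4%. In CA1 against A10, 9 were higher and 30 lower, beside 3 and 3 members and 34.4% and 36.5%. The member counts in CA1 against A10 are near the background. IFIT2 held 12.57 ± 0.6053 CPM in A10, 1.178 ± 0.2389 in NeoT, 57.86 ± 0.7888 in T1, with 1.986 ± 0.6388 in CA1, and IFI6 held 19.59 ± 0.4719, 6.532 ± 0.7812, 104.9 ± 9.203 and 7.404 ± 1.351. T1 was thus the highest line for these 2 genes, while 11 of the 49 were lower in T1 than in A10. Among the members it was the lowest line for HLA-B, B2M, TAP1, PSMB9 and PSMB8, the last not called against NeoT. TAP2 had its highest mean in T1, and HLA-C was not called in T1 against A10. Of 16 interferon receptor and JAK-STAT genes, 7 were higher and 5 lower in T1 than in A10, beside 26.0% and 25.9% of all tested genes. The difference between the lists was not tested.

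**Figure D4:**
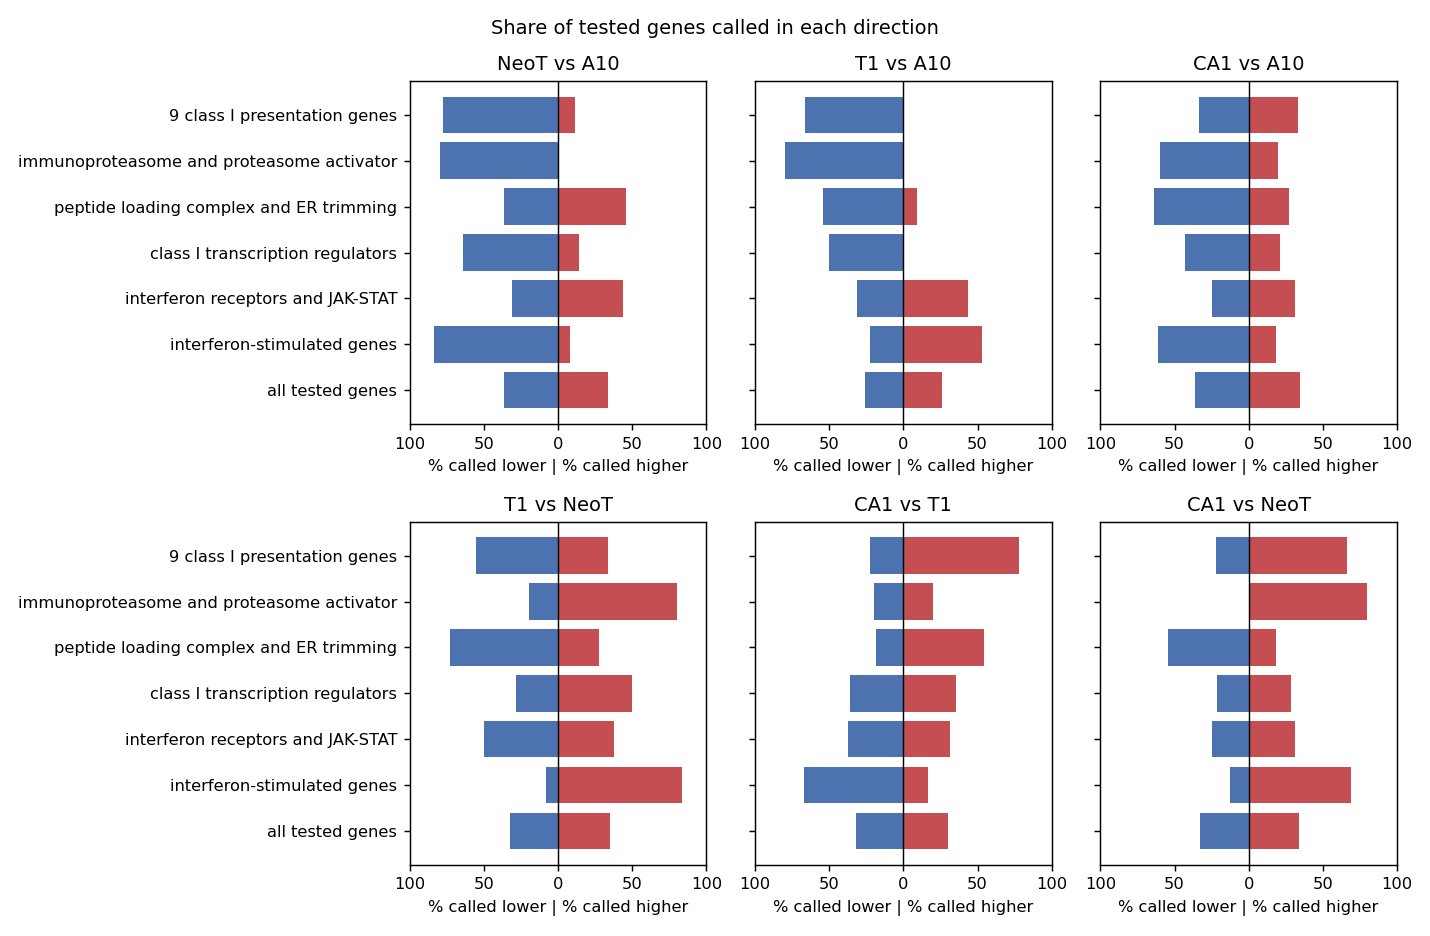
Percentage of tested genes called lower (blue, leftwards) and higher (red, rightwards) in each of the 6 comparisons, for the 9 members, 5 lists and all tested genes. In T1 against A10 the members show 6 lower and 0 higher, while the interferon-stimulated genes show 26 higher and 11 lower; in NeoT against A10 they show 41 lower and the members 7 lower.

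Genes around the members were read for shared shifts along the chromosome. In CA1 against T1 the median log2 fold change of tested genes within 1 Mb was 0.462 around HLA-F (15 higher, 3 lower of 28), 0.068 around HLA-E (17 and 6 of 37), 0.306 around HLA-C and HLA-B (33 and 10 of 73) and 0.392 around TAP2, PSMB8, TAP1 and PSMB9 (24 and 7 of 51). It was 0.0115 around B2M on chromosome 15 (5 and 4 of 20). Over all tested genes 30.4% were higher and 31.9% lower. The windows on chromosome 6 share genes with one another. HLA-C and TAP2 were lower in this comparison inside windows whose medians were above 0. In T1 against A10 the medians were -0.045 around HLA-C and HLA-B (9 higher, 24 lower of 73), beside -2.54 for HLA-B. Around the transporter and proteasome genes the median was -0.002 (7 and 14 of 51), beside -2.61 for PSMB9. The medians were -0.148 around HLA-F (4 and 10 of 28), -0.207 around HLA-E (6 and 15 of 37) and -0.157 around B2M (6 and 6 of 20). Over all tested genes 26.0% were higher and 25.9% lower. More neighbours were thus called lower than higher in every window on chromosome 6. Of the 9 tested genes within 100 kb of the centre of a window, B2M included, 1 was higher in T1 than in A10 and 3 were lower, beside the same shares. HLA-DOB, a class II chain gene beside TAP2, had a log2 fold change of 1.563, LOC100294145 of -0.898, PRR3 of -1.431 and GNL1 of -0.345. The 5 not called were ZFP57 (-1.124), HLA-F-AS1 (-0.428), ABCF1 (-0.055), MICA (0.125), which encodes a ligand of the NKG2D receptor, and TRIM69 (-0.223).

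**Figure D5:**
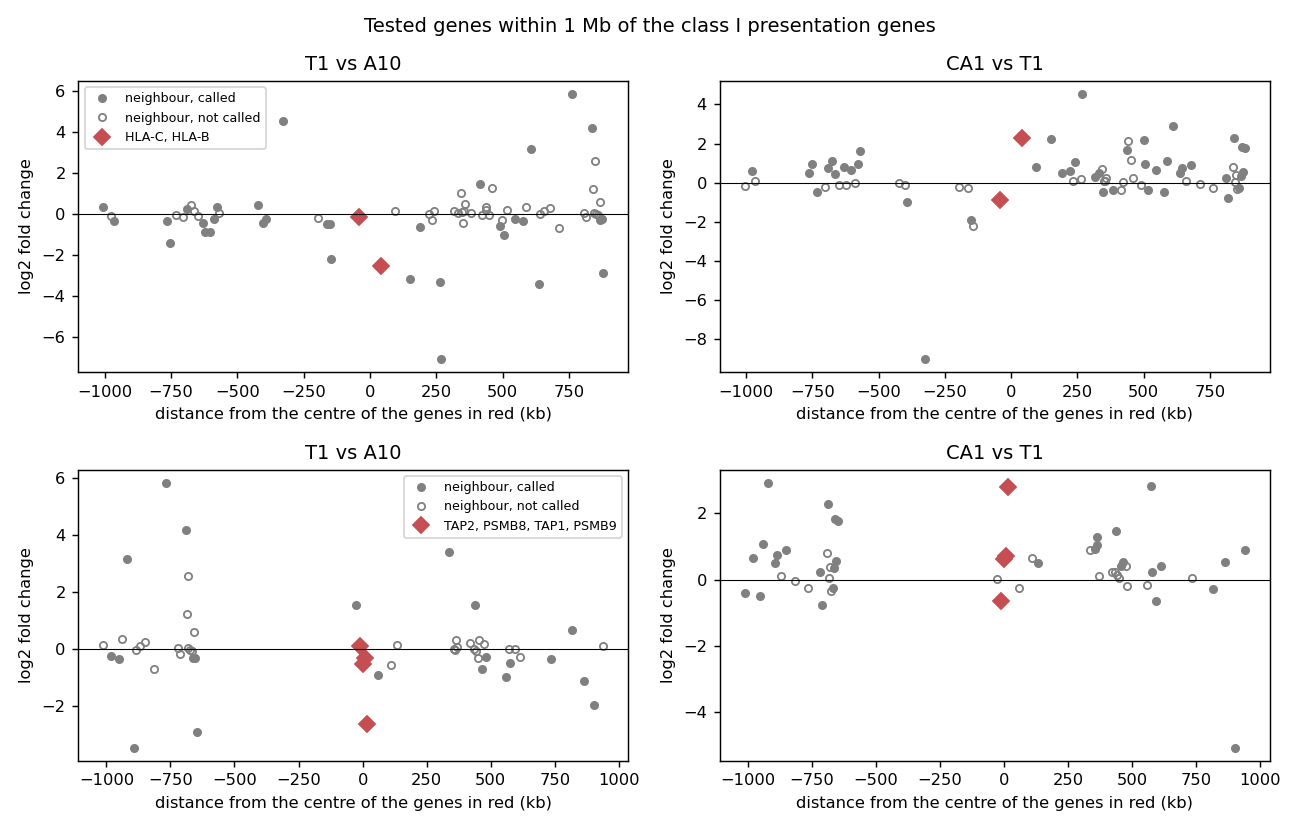
Fitted log2 fold change (vertical axis) of tested genes against distance in kb from the centre of the genes in red, around HLA-C and HLA-B (top) and around TAP2, PSMB8, TAP1 and PSMB9 (bottom), in T1 against A10 (left) and CA1 against T1 (right); filled points were called. HLA-B and PSMB9 sit far below 0 in T1 against A10, while the neighbours' medians are -0.045 and -0.002. More neighbours were called lower than higher there (24 and 9 of 73 at the top, 14 and 7 of 51 at the bottom).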

How the data were processed

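Libraries were made from DNase-treated total RNA with an NEBNext Ultra kit, per the labels' protocols. The deposited table holds expected counts per gene that the authors estimated with Salmon, as the table's name says, unscaled between libraries. GRCh38 and limma are named without a role per the submitters' processing notes, and the annotation, versions and strand setting are not given in the sources used here. Counts were rounded (10.1% of values were not whole). edgeR 4.0.16 in R 4.3.3 was used with filterByExpr on the line, TMM factors and robust quasi-likelihood fits with one mean per line, and the code was tested on simulated data. SEs are the log2 fold change over the root of F, and 95% intervals are approximate. Replicates differed beyond sampling noise (chi-square per gene 5.49 to 101).

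The members and the 13 gene lists were chosen with earlier results of these data known. The rule for named genes took all members, HRAS, up to 4 genes per list by the smallest adjusted p in the test of any difference, any gene of the lists of regulators, constitutive subunits and antisense neighbours, the 3 genes nearest in pattern to each member and neighbours within 100 kb. Some genes that this rule names are not reported here. TAPBP and PSMB10, outside that rule, and the pair shares were added after values were seen, as were 2 of 3 spellings of the interferon regulatory factor core and 1 of 2 of the NF-kB core. CALR and the cell type markers TP63, KRT8, PTPRC, CD3E and MS4A1 are also named outside that rule. Alternatives were RLE and upper-quartile factors, no filter, 1 CPM in 3 libraries, DESeq2 1.42.0, limma-voom (limma 3.58.1), only the 2 lines compared, a replicate block, no rRNA rows and left-out libraries. Positions are from GENCODE 29, promoters from RefSeq (GRCh38.p14). Tables and figures were made in Python 3.11.15 with numpy 2.4.6, pandas 2.3.3 and matplotlib 3.10.9.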

Additional observations from a re-analysis of the deposited data

How the results depend on the processing

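The number of members called stayed within 1.5 times the reported count in all 153 alternative counts run: 8 in NeoT against A10, 6 to 7 in T1 against A10, 6 in CA1 against A10, 7 to 9 in T1 against NeoT, 9 in CA1 against T1 and 8 to 9 in CA1 against NeoT. Of 1188 refitted member fold changes, 1176 kept their direction and side of the threshold. HLA-F in CA1 against A10, not called, changed sign to 0.058 without A10 replicate 3 and to 0.036 without CA1 replicate 1, and ran from -0.124 to 0.058 (log2) as each library was left out. TAP1 in T1 against NeoT was lost without T1 replicate 2 (edgeR adjusted p = 0.0603). The other 9 passed the threshold only under an alternative: HLA-C in T1 against A10, PSMB8 in T1 against NeoT and TAP2 in CA1 against NeoT, each in 3 settings, all of which left out libraries; the cause was not tested. Same-numbered replicates did not deviate together (18 pairs, correlations -0.0681 to 0.092, and 5 of 12 libraries best with their own number), and with the replicate number as a block the members called were 8, 6, 6, 8, 9 and 8 in the order above. The fibroblast markers lower in CA1 than in NeoT went from 5 to 3 with the filter of 1 CPM and to 2 with only the 2 lines compared. Depth limits PSMB9 most, with 24 to 45 counts per T1 library.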
